A study of Bos taurus with 10 samples.

Results

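Non-homologous end joining (NHEJ) is the pathway by which a cell joins the 2 ends of a broken chromosome without a template. Its classical factors were followed here in bovine (Bos taurus) oviductal organoids, three-dimensional cultures of the epithelium that lines the oviduct, under thermoneutral and heat stress (HS) conditions. The members were 8 of the 26,804 genes in the expression table, taken by name: XRCC6, XRCC5, PRKDC, DCLRE1C, XRCC4, LIG4, NHEJ1 and PAXX. All 8 were found by symbol, and all 8 passed the filter on low values. The set was chosen by name and selected on the TPM difference between the temperatures, which was known beforehand and for which PAXX was singled out. The differences of the members between 37 °C and 42 °C are therefore given as a description, without p-values.

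In the pathway, the ring-shaped Ku heterodimer of XRCC6 and XRCC5 slides onto a broken end within moments of the break and recruits the kinase PRKDC, the catalytic subunit of DNA-PK. DCLRE1C (Artemis) is a nuclease that PRKDC activates to trim ends or open hairpins. XRCC4 and LIG4 form the ligase complex that seals the break, and NHEJ1 (XLF) and PAXX are structural relatives of XRCC4 that help to hold the ends together. PAXX binds Ku, and in mammalian cells its loss is largely tolerated as long as NHEJ1 is present. End joining works throughout the cell cycle, in contrast to homologous recombination, which depends on a copied chromosome.

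The organoids were grown at first passage from the scraped epithelium of diestrus oviducts obtained at slaughter, and each replicate pooled 2 animals. All cultures were kept at 37 °C, moved to a synthetic matrix, and for the final day either left at 37 °C or moved to 42 °C. Each temperature had 5 libraries, A to E. The study used the same oviducts at both temperatures, and the same letter was taken to stand for the same oviducts. The libraries are called 37C A to 37C E and 42C A to 42C E. No genetic change or drug distinguished the groups, and both were grown in the same medium, which holds growth factors and kinase inhibitors.

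Values are TPM (transcripts scaled to a fixed library total), which correct for transcript length, so that levels of different genes can be set side by side. Each library sums to 1,000,000 TPM. Read numbers cannot be recovered from such values, and the depth behind each one is unknown. The study set aside 1 HS replicate that clustered apart, with no letter given. It was identified as 42C B from the group means of the study, so that 5 thermoneutral and 4 HS libraries were compared. The value of 42C B is given beside them for the members and a few other genes, but not for the lists of neighbouring repair genes. Differences are on the log2(TPM + 1) scale, 42 °C minus 37 °C, which understates the change of low genes. A gene was called at a Benjamini-Hochberg adjusted p below 0.05 in limma where its log2 difference also reached 1 in either direction. The median difference of the 12,149 genes tested was 0.30.

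The labels and the tissue were checked first. Of 9 heat shock chaperones 8 were called higher, and in all 9 each HS library lay above every thermoneutral one. Of 10 epithelial markers 9 were tested, with 0 called higher and 1 lower (median difference -0.57), and their summed level was 13,191 to 16,017 TPM at 37 °C and 8054 to 12,288 TPM in the 4 HS libraries, without overlap. The keratin KRT19 fell (5248 to 1904 TPM, -1.53, limma adjusted p = 0.000281), and KRT18, KRT8 and KRT7 had differences of -0.76, -0.59 and -0.57, whereas EPCAM, CDH1, SOX17 and PAX8 had 0.66, 0.98, 0.49 and 0.24. FOXJ1 of ciliated cells was at -0.64 with overlap between the groups, and OVGP1, the oviductal glycoprotein, was below 1 TPM in every library. The summed level of 6 fibroblast markers was 0.865 to 3.04 TPM in the thermoneutral and 0.756 to 1.55 TPM in the HS libraries, with no gene tested. Of 9 leukocyte markers PTPRC, CD3E, CD3D, CD79A, MS4A1 and CSF1R were at or near 0 at both temperatures. CD68, a lysosomal protein of macrophages, rose from 0.848 to 6.22 TPM (1.84, limma adjusted p = 0.000643), and CD14 had 57.8 and 31.1 TPM (-0.91). LYZ had 0.119 and 0.751 TPM and was not tested. Of 4 endothelial markers 2 were tested and 0 called. KDR had 13.5 and 8.54 TPM (-0.59) and VWF 1.34 and 2.95 TPM (0.74), both without overlap. The part of these marker shifts in the levels of the members was not tested. The library 42C B stood apart with the highest CRYAB (13,262 TPM), and its epithelial markers summed to 4743 TPM, below every other library. The library 42C A had the lowest chaperone levels of the HS group (HSPA1A 1830 TPM).

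At 37 °C the members covered a wide range of levels, with PAXX far above the rest. PAXX stood at 142 ± 11.5 TPM (SD, n = 5) and made up 60.3% to 64.7% of the summed TPM of all 8 members. XRCC6 followed at 42.6 ± 3.28 TPM, XRCC5 at 16.9 ± 1.35 TPM and NHEJ1 at 11.5 ± 0.685 TPM. The ligase pair and the processing enzymes were low, with XRCC4 at 6.83 ± 1.04 TPM, PRKDC at 3.63 ± 0.544 TPM, LIG4 at 3.09 ± 0.573 TPM and DCLRE1C at 1.78 ± 0.439 TPM. Neighbours in this order did not overlap in their library ranges, except PRKDC and LIG4. By comparison, the genes tested had a median of 17.5 TPM at this temperature, so that PAXX, XRCC6 and no other member lay above it.

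At 42 °C this order was compressed. XRCC6 (39.6 ± 7.85 TPM, SD, n = 4) and PAXX (39.6 ± 2.83 TPM) had overlapping ranges, as had XRCC5 (12.5 ± 2.94 TPM) and NHEJ1 (12.4 ± 1.33 TPM), and NHEJ1 and XRCC4 (11.1 ± 0.468 TPM). LIG4 (9.03 ± 0.970 TPM) lay above DCLRE1C (5.61 ± 1.19 TPM) in each library, and DCLRE1C and PRKDC (4.98 ± 0.722 TPM) overlapped. PAXX moved from place 1110 among all genes of the table by mean TPM to place 4206, while LIG4 moved up from 10,340 to 8818. The share of PAXX in the summed TPM of the members was 27.3% to 35.2% in the 4 HS libraries and 52.2% in 42C B.

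**Figure D1:**
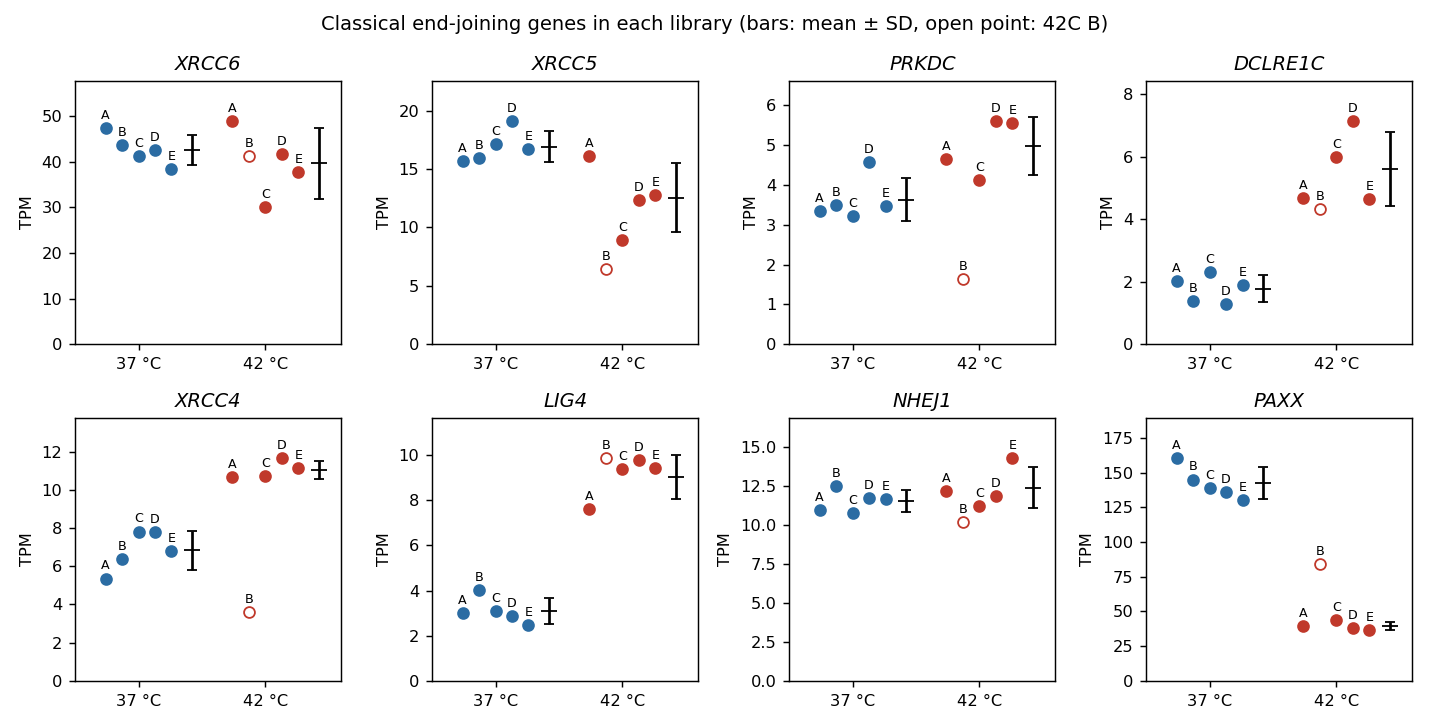
Level of each classical end-joining gene in each library in TPM (vertical axes from 0), by temperature, with letters for the replicates, bars for mean ± SD and an open point for 42C B, which is not in the mean. PAXX is lower in the HS libraries (37.0 to 43.6 TPM against 130.5 to 160.6 TPM), LIG4 and DCLRE1C are higher, and NHEJ1 and XRCC6 overlap between the temperatures.

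Of the 8 members, 2 passed the call rule higher at 42 °C (LIG4 and DCLRE1C) and 1 lower (PAXX). Over all genes tested 15.8% were called higher, 7.14% lower and 22.9% either way, and since this contrast was used to choose the members nothing is read from their counts. The groups did not overlap in 3 members that were higher (LIG4, DCLRE1C and XRCC4) and in 1 that was lower (PAXX), beside 36.6% and 12.3% of all genes. The median difference of the members was 0.23, beside 0.30 over all genes. In cultures measured in bulk, fewer cells of a type and less RNA per cell cannot be told apart.

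PAXX (ENSBTAG00000015081) was the member with the lowest difference. It was at 160.6, 145, 138.7, 136.4 and 130.5 TPM in 37C A to E, and at 39.3, 43.6, 38.4 and 37.0 TPM in 42C A, C, D and E. Every HS library was below every thermoneutral one, and the 42 °C libraries were close to each other. The library 42C B, at 84.5 TPM, lay between the groups. The mean at 42 °C was 0.278 of that at 37 °C, and the log2 difference was -1.82 (SE 0.0962). Of the genes tested 1.39% had a lower difference, but PAXX was singled out for this difference, so nothing is read from its place. Within letters the differences were -2.0 in A, -0.77 in B, -1.65 in C, -1.80 in D and -1.79 in E, so that all 5 pairs had the same direction.

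In the RefSeq annotation of the build ARS-UCD2.0, which is not the build of the table, the span of CLIC3, an intracellular chloride channel gene, overlaps that of PAXX. The sources used here do not say whether reads were counted by strand, and whether reads were shared between these genes was not tested. CLIC3 was at 5.55 to 11.03 TPM in the thermoneutral and 11.9 to 16.9 TPM in the 4 HS libraries (log2 difference 0.84, limma adjusted p = 0.00331, below the fold of the call rule). It differed in the direction opposite to that of PAXX, and like PAXX it was highest among the 42 °C libraries in 42C B (46.6 TPM).

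The structural relatives of PAXX were examined next. XRCC4 (ENSBTAG00000024275), the scaffold of the ligase, was at 5.36, 6.36, 7.82, 7.81 and 6.82 TPM in 37C A to E and at 10.7, 10.7, 11.7 and 11.1 TPM in 42C A, C, D and E. The 4 HS libraries lay above all thermoneutral ones, with a log2 difference of 0.63 (SE 0.140), but 42C B was the lowest of all 10 libraries at 3.59 TPM. With 42C B included, the difference of XRCC4 was 0.35. NHEJ1 (ENSBTAG00000031041) ranged from 10.8 to 12.5 TPM at 37 °C and from 11.2 to 14.3 TPM at 42 °C, with 10.2 TPM in 42C B. Its groups overlapped, and its difference was 0.09 (SE 0.121) as deposited but -0.22 with median-ratio scaling and -0.27 with quantile normalization.

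LIG4 (ENSBTAG00000015868), the DNA ligase dedicated to end joining, was higher in every HS library. It was at 2.99, 4.03, 3.10, 2.87 and 2.48 TPM in 37C A to E, and at 7.60, 9.36, 9.76 and 9.40 TPM in 42C A, C, D and E. The library 42C B was on the same side at 9.87 TPM, the highest of all. The mean at 42 °C was 2.92 times that at 37 °C, and the log2 difference was 1.30 (SE 0.155). Within letters it ranged from 1.11 in A to 1.58 in E. The gene next to LIG4 in the annotation, ABHD13, was called higher as well (23.6 ± 3.49 TPM in the thermoneutral and 56.9 ± 15.1 TPM in the HS libraries, log2 difference 1.21, limma adjusted p = 0.000243), and the part of shared reads was not tested.

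DCLRE1C (ENSBTAG00000010220), the hairpin-opening nuclease, was the least abundant member at 37 °C. Its levels were 2.01, 1.38, 2.33, 1.28 and 1.89 TPM in 37C A to E and 4.68, 5.99, 7.14 and 4.65 TPM in 42C A, C, D and E. As for LIG4, no HS library overlapped with the thermoneutral ones, and 42C B was on the same side at 4.33 TPM. The mean was 3.16 times higher at 42 °C, and the log2 difference was 1.25 (SE 0.186). RAG1, RAG2 and DNTT, which create and process the ends that DCLRE1C opens in lymphocytes, had group means of 0.269 TPM or less and were not tested.

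The sensors of broken ends differed less. XRCC6 (ENSBTAG00000006103) ranged from 38.3 to 47.3 TPM at 37 °C and from 30.0 to 48.8 TPM at 42 °C, with 41.3 TPM in 42C B and a difference of -0.12 (SE 0.137). Without 42C C, its lowest HS library, the difference was 0.0018. XRCC5 (ENSBTAG00000010426) ranged from 15.7 to 19.1 TPM at 37 °C and was at 16.1, 8.92, 12.4 and 12.8 TPM in 42C A, C, D and E, with 6.44 TPM in 42C B. Its difference was -0.43 (SE 0.157), and 42C A alone of all 5 HS libraries lay within the thermoneutral range. PRKDC (ENSBTAG00000017019) ranged from 3.23 to 4.58 TPM at 37 °C and from 4.12 to 5.6 TPM at 42 °C (0.37, SE 0.156), and its lowest library was 42C B at 1.64 TPM.

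Scaling between libraries moved all members together, because the median gene itself differed by 0.30. With median-ratio scaling, where that median was -0.01, the differences were -2.16 for PAXX, -0.75 for XRCC5, -0.46 for XRCC6, 0.09 for PRKDC, 0.32 for XRCC4, 0.99 for DCLRE1C and 1.01 for LIG4. PAXX passed the call rule under each of the alternatives. DCLRE1C did not pass it with median-ratio scaling, and neither LIG4 nor DCLRE1C passed it with quantile normalization (0.97 and 0.98) or with a pseudocount of 5 (0.79 and 0.64). The replicate block, in which each letter has its own level, changed none of these calls.

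**Figure D2:**
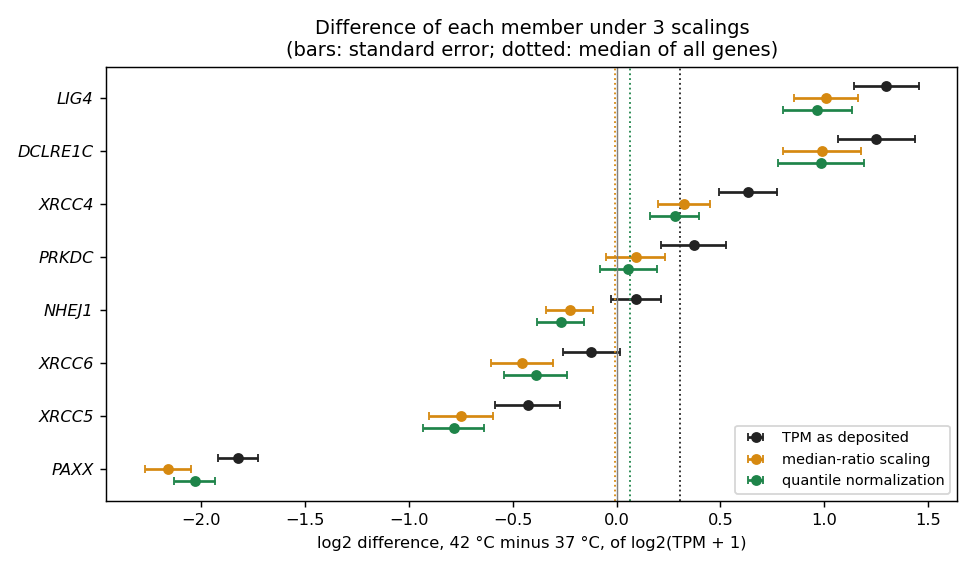
Log2 difference (42 °C minus 37 °C, horizontal axis) of each member with its standard error, for TPM as deposited and for 2 other scalings of the 9 libraries, with dotted lines at the median of all genes under each. PAXX lies lowest under every scaling (-1.82 as deposited), LIG4 and DCLRE1C lie highest, and NHEJ1 changes side of 0.

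Plain ratios of 2 members within a library do not move with a scaling factor for the whole library, and 6 were taken. Ratios on the log2 scale are of TPM + 1, so that for low genes they can move with it. PAXX was 3.21 to 3.41 times as abundant as XRCC6 in the 5 thermoneutral libraries. In the 4 HS libraries it was 0.805 to 1.45 times as abundant, and in 42C B 2.05 times. On the log2 scale this ratio was 1.72 ± 0.0352 (SD, n = 5) at 37 °C and 0.02 ± 0.356 (SD, n = 4) at 42 °C. Its SD at 37 °C was the smallest of the 6 log2 ratios. The ranges of the groups did not overlap.

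Within the ligase complex, LIG4 was 0.363 to 0.634 times as abundant as XRCC4 at 37 °C and 0.714 to 0.872 times at 42 °C, also without overlap. NHEJ1 was 1.38 to 2.04 times as abundant as XRCC4 at 37 °C and 1.01 to 1.28 times at 42 °C. In 42C B both ratios were above all other libraries (2.75 and 2.84). XRCC5 stayed below its partner XRCC6, at 0.332 to 0.449 times at 37 °C and 0.296 to 0.338 times at 42 °C, with overlap. DCLRE1C was less abundant than PRKDC in every thermoneutral library (0.280 to 0.720 times) and 0.836 to 1.45 times as abundant at 42 °C. PRKDC to XRCC6 was 0.0710 to 0.108 at 37 °C and 0.0952 to 0.147 at 42 °C, with overlap.

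**Figure D3:**
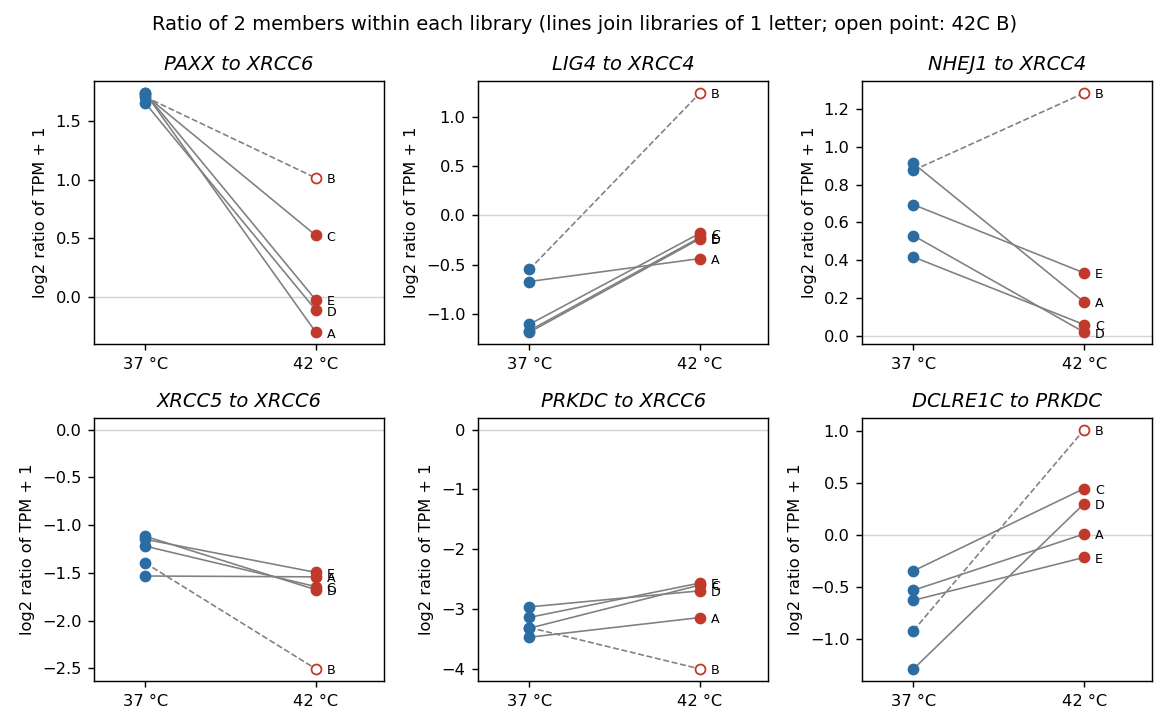
Log2 ratio of TPM + 1 between 2 members within each library (vertical axes), at 37 °C and 42 °C, with lines joining libraries of the same letter and an open point for 42C B. The ratio of PAXX to XRCC6 lies within 1.66 to 1.74 at 37 °C and between -0.31 and 0.52 in the 4 HS libraries, and 42C B lies outside the other HS libraries in all 6 panels.

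Some genes followed the pattern of a member closely over the 10 libraries. Among 9550 genes with a symbol and a mean of 5 TPM or more, those most like PAXX were UCP2, a mitochondrial uncoupling protein (Pearson r = 0.985), DECR2, a peroxisomal reductase of fatty acid oxidation (0.984), and H2AZ1, a histone variant (0.981). UCP2 had 219 ± 11.2 TPM under thermoneutral conditions, 83.6 ± 10.6 TPM under HS and 153 TPM in 42C B, so that this library lay between the groups here too. Those most like LIG4 were CCDC117 (0.990), the deubiquitinase USP48 (0.990) and RPRD1B, which binds RNA polymerase (0.987). CCDC117 had 13.5 ± 0.890 TPM under thermoneutral conditions and 48.6 ± 5.21 TPM under HS. These correlations are a description, as the libraries share the 2 temperatures.

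Factors that assist end joining at particular ends were followed next. Of 10 accessory factors 9 were tested, and 1 fell and 0 rose, against 7.14% and 15.8% of all genes (median difference 0.29). POLM, a polymerase that fills gaps at joined ends, fell to 1.21 ± 0.315 TPM under HS from 5.09 ± 0.975 TPM (-1.46, limma adjusted p = 7.34e-05). POLM lost its call with a pseudocount of 5, and it was not tested under the filter at a mean of 5 TPM. The relative of POLM, POLL, did not pass the fold of the call rule, with a difference of 0.51.

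The remaining accessory factors lay below the fold of the call rule as well. TDP2 (0.56) and TDP1 (0.25), which release trapped topoisomerases, and APTX (0.42), which removes abortive ligation intermediates, had positive differences. So had the helicase WRN (0.68), the Ku-binding protein CYREN (0.29) and APLF (0.25), a scaffold that binds Ku. ERCC6L2 was at -0.43.

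TP53BP1 and its partners protect broken ends from resection and so favour end joining. Of 15 genes of this branch tested, 3 rose and 0 fell, against 15.8% and 7.14% of all genes (median difference 0.45). MDC1, the adaptor that reads phosphorylated histone at breaks, rose to 37.8 ± 11.1 TPM under HS from 11.2 ± 2.35 TPM (1.64, limma adjusted p = 5.81e-05). RIF1, the effector of TP53BP1, rose by 1.36 (limma adjusted p = 0.000154), and TP53BP1 itself rose from 13.7 ± 1.88 TPM to 32.5 ± 3.84 TPM (1.19, limma adjusted p = 4.59e-05). TP53BP1 lost its call with median-ratio scaling and with quantile normalization, and RIF1 with quantile normalization and with a pseudocount of 5. TEN1, a subunit of the CST complex that works with shieldin, had 67.8 ± 9.86 TPM under thermoneutral conditions and 36.4 ± 8.71 TPM under HS without overlap (-0.89), below the fold of the call rule. It was called lower with median-ratio scaling, with quantile normalization, with all 10 libraries and without 42C A, so that 1 of the 15 fell in each. The shieldin genes SHLD1, SHLD2 and SHLD3 had differences of 0.04, 0.57 and -0.12.

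Among genes of break sensing and end resection, the step that turns a break away from end joining, 2 of 12 rose and 0 fell. Their median was 0.39, and over all genes 15.8% rose and 7.14% fell. ATM, the kinase that signals breaks, rose from 5.36 ± 0.916 TPM to 14.0 ± 1.14 TPM (1.24, limma adjusted p = 5.73e-05), and BARD1, the partner of BRCA1, rose by 1.03 (limma adjusted p = 0.00134). Genes of the MRE11 complex did not pass, with differences of 0.45 (MRE11), -0.01 (RAD50) and -0.35 (NBN). Both calls were lost with median-ratio scaling, quantile normalization, a pseudocount of 5 and all 10 libraries (0 of 12 called in each). BARD1 alone was lost with the replicate block (1 of 12 called) and without 37C A, 37C B, 42C D or 42C E.

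In alternative end joining, which uses short repeats and other enzymes, 0 of 9 genes were called in limma, against 22.9% of all genes. Without the fold of the call rule, 6 of the 9 had a limma adjusted p below 0.05 (median difference -0.12). So had 45 of the 69 genes tested in the 6 repair lists, and the share over all genes at this threshold was not taken. POLQ, its polymerase, had 0.736 ± 0.190 TPM under thermoneutral conditions and 1.48 ± 0.778 TPM under HS. The ligases of this route, LIG3 (-0.12) and LIG1 (-0.52), had negative differences, whereas LIG4 stood at 1.30. PARP1 had 80.7 ± 6.66 TPM under thermoneutral conditions and 104 ± 3.69 TPM under HS (0.36).

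PRKDC belongs to the family of PI3K-like kinases (PIKK), which depend on the TTT chaperone complex for their stability. Of 12 genes of this list, which does not hold PRKDC, 6 rose and 1 fell, against 15.8% and 7.14% of all genes (median 0.85). SMG1 rose by 1.52 (limma adjusted p = 0.000109), MTOR from 8.82 ± 0.854 TPM to 26.9 ± 3.98 TPM (1.5, limma adjusted p = 2.10e-05), and TTI1, of the TTT complex, by 1.33 (limma adjusted p = 7.20e-05). The other risers were ATM, ATR and TRRAP, so that all 5 listed genes of the PIKK family were called, whereas PRKDC had a difference of 0.37. Whether PRKDC differed from these genes was not tested. PIH1D1, named outside the naming rule, links the TTT complex to its co-chaperones and fell (-1.23, limma adjusted p = 4.67e-05). With median-ratio scaling, with a pseudocount of 5 or with all 10 libraries 3 of the list rose, and with quantile normalization 2 rose. In each of these settings ATM, ATR and TRRAP lost their calls, while MTOR and SMG1 kept theirs. Leaving out either 42C C or 42C D also ended the call of TRRAP.

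Genes for removing Ku from joined DNA fell in 2 of 13 and rose in 0, against 7.14% and 15.8% of all genes (median -0.16). UFD1, a cofactor of the VCP segregase, fell from 91.2 ± 3.93 TPM to 41.5 ± 4.53 TPM (-1.12, limma adjusted p = 1.82e-05), and NAE1, of the enzyme that activates NEDD8, from 16.1 ± 1.37 TPM to 7.01 ± 2.30 TPM (-1.13, limma adjusted p = 0.000270). VCP had 420.5 ± 21.9 TPM under thermoneutral conditions and 317 ± 50.0 TPM under HS (-0.42). NPLOC4 of the same list went the other way, from 42.3 ± 2.91 TPM to 72.4 ± 16.7 TPM. Its difference of 0.73 was below the fold of the call rule, and its groups did not overlap. NAE1 lost its call with a pseudocount of 5, and the ubiquitin ligase RNF126 was called lower with median-ratio scaling, quantile normalization and all 10 libraries.

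Over these 6 lists together, 69 genes were tested (median 0.33, beside 0.30 over all genes). Of these, 10 rose and 4 fell, against 15.8% and 7.14% of all genes. With median-ratio scaling 5 rose and 6 fell. The lists are named for roles known from mammalian cells, and no test compared them with other genes.

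**Figure D4:**
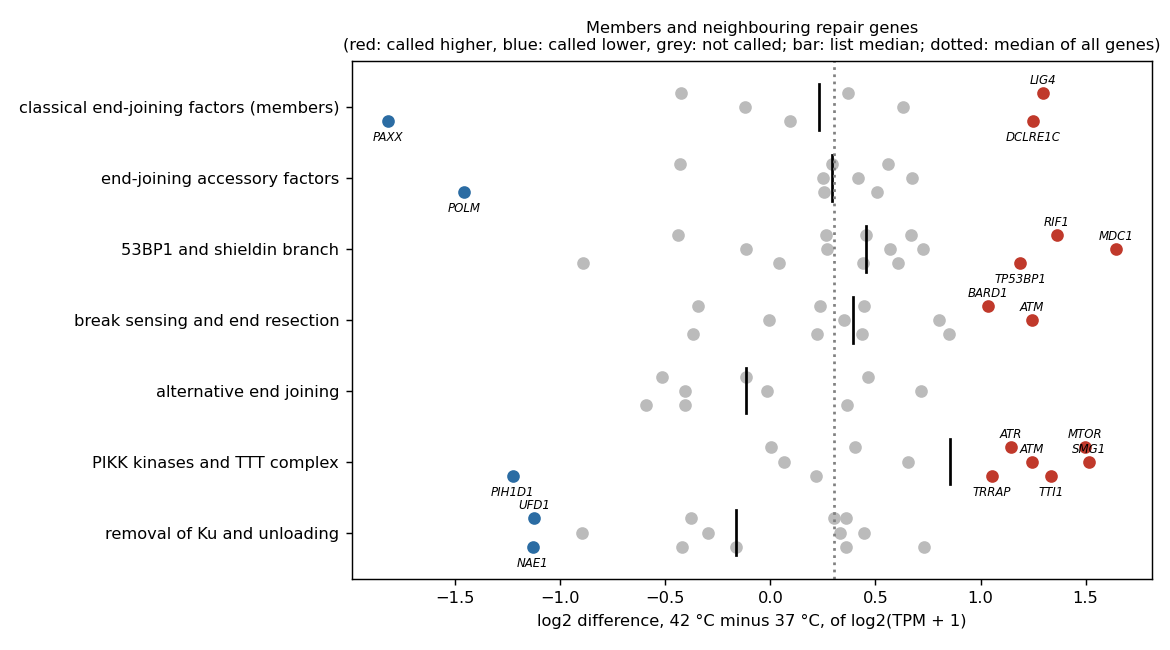
Log2 difference (42 °C minus 37 °C, horizontal axis) of each gene tested in the members and in 6 lists of neighbouring repair genes, with red and blue points for genes past the call rule higher and lower, a bar at the list median and a dotted line at the median of all genes (0.30). PAXX, which was singled out for its difference, has the lowest of all points (-1.82), and MDC1 the highest (1.64).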

How the data were processed

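The deposited values are TPM per gene. According to the study's methods the authors trimmed paired reads, mapped them to ARS-UCD1.2 in CLC Genomics Workbench and normalized by TMM, and bcl2fastq generated the read files. Bowtie2 2.2.2 and DESeq2 stand in the notes of the submitters with no step given. The deposited TPM of a library add up to 1,000,000 in each case, which leaves no TMM factor between libraries. The authors' count model was not used, since TPM are not counts.

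Columns were matched to samples by title. The filter kept the 12,149 genes that reached 1 TPM in 4 or more of 9 libraries, and these were tested on log2(TPM + 1) with limma 3.58.1 in R 4.3.3 (lmFit, eBayes with trend, two-sided), Benjamini-Hochberg adjusted over all of them. The p-values measure the spread between pools of animals within a temperature. The fit had no block and treated libraries of the same letter as independent. With the replicate block, TP53BP1 had a limma adjusted p = 0.000656 in place of 4.59e-05. The study left out 1 HS replicate, which was identified as 42C B because the 42 °C means it prints for single genes are those of the other 4 libraries. The members and all 15 gene lists were chosen with earlier results of these data known. Of 143 listed symbols 142 were found, and 1 further gene of the accessory factors is not reported here. The text names all members and the other accessory factors, up to 4 called genes of each other repair list by size of difference, the 3 genes most correlated with PAXX and with LIG4, defining markers, and annotated genes next to PAXX and LIG4. CLIC3, which overlaps PAXX, was chosen after its values were seen. So were the proliferation genes with positive differences and the other genes named from the repair lists. The latter were the shieldin genes, the MRE11 complex, alternative end joining, TEN1, ATR, TRRAP, PIH1D1, RNF126, VCP and NPLOC4.

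Same-letter libraries were taken to come from the same oviducts. Their deviations from the group means correlated at 0.125 (A), 0.238 (B), 0.369 (C), 0.273 (D) and 0.211 (E), each above that with any other letter. Alternatives covered pseudocount, filter, scaling, libraries, the replicate block and variance model. The procedure was tested on simulated data. No gene or protein sequences were used here. Figures were drawn with matplotlib 3.10.9.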

Additional observations from a re-analysis of the deposited data

Results flagged for a closer look

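Each member was examined in each group of 5 libraries for a sample far from the others by Dixon's test, in 16 groups in all. Chance marks about 1 in 20 such groups, and 4 samples were found. The 16 groups share the same libraries, and 42C B had been set aside beforehand, so nothing is read from this count. In the 42 °C group, PAXX in 42C B (84.5 TPM) and XRCC4 in 42C B (3.59 TPM) stood apart, the first above and the second below the other HS libraries, and LIG4 in 42C A stood apart as the lowest (7.60 TPM). At 37 °C, PRKDC in 37C D stood apart as the highest (4.58 TPM).

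The library 42C B is outside the comparison, and its values were set against the thermoneutral libraries separately. LIG4 (9.87 TPM) and DCLRE1C (4.33 TPM) were above every 37 °C library there. PAXX, XRCC4, XRCC5, NHEJ1 and PRKDC were below every 37 °C library, and XRCC6 was within their range. The share of all genes outside that range in 42C B was not taken, so nothing is read from these places.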

How the results depend on the processing

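TPM as deposited, with a pseudocount of 1, gave 1915 genes higher and 867 lower. Median-ratio scaling gave 921 and 1433, quantile normalization 981 higher (and 1253 lower), and a pseudocount of 5 gave 884 and 487. The shares of calls that were higher were 68.8% as deposited, 39.1% with median-ratio scaling and 43.9% with quantile normalization. Members called higher were 2 as deposited, 0 with a pseudocount of 5 or quantile normalization, and 1 with median-ratio scaling or a filter at a mean of 5 TPM, which DCLRE1C and PRKDC did not pass. The member called lower was 1 throughout. In the 6 repair lists 10 rose as deposited, 5 with a pseudocount of 5 (2 fell, against 4 as deposited) or median-ratio scaling, 3 with quantile normalization and 6 with all 10 libraries.

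With quantile normalization the member differences were -2.03 (PAXX), 0.28 (XRCC4), -0.78 (XRCC5), -0.39 (XRCC6), 0.97 (LIG4), -0.27 (NHEJ1), 0.98 (DCLRE1C) and 0.057 (PRKDC). With median-ratio scaling they were -2.16, 0.32, -0.75, -0.46, 1.01, -0.22, 0.99 and 0.092 in this order. With all 10 libraries they were -1.60 for PAXX, 0.35 for XRCC4 and 0.14 for PRKDC. A pseudocount of 0.1 gave 1.53 for LIG4 and 1.62 for DCLRE1C, and one of 5 gave 0.79 and 0.64, and 0.44 for XRCC4. The differences in log2 ratio with all 10 libraries were 0.97 (LIG4 to XRCC4), -0.31 (NHEJ1 to XRCC4), -0.49 (XRCC5 to XRCC6) and 0.24 (PRKDC to XRCC6), and a pseudocount of 5 gave 0.35 (LIG4 to XRCC4) and 0.43 (DCLRE1C to PRKDC). The cause was not tested, apart from the lower sensitivity of a larger pseudocount to low genes.

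When 1 library was left out, the ranges were -1.87 to -1.77 for PAXX, 1.24 to 1.38 for LIG4 and 1.14 to 1.32 for DCLRE1C, and the calls of all 3 held. The replicate block gave -1.81 for PAXX, 1.38 for LIG4 and 1.2 for DCLRE1C, and in the repair lists it changed the call of BARD1 alone. Depth is unknown, so that the counting error of low genes such as DCLRE1C is unknown too.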

Other observations

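End joining shares its substrates with repair that needs a dividing cell, so genes of proliferation were measured beside the members. Of 24 such genes 4 fell and 0 rose, against 7.14% and 15.8% of all genes (median difference -0.23). BUB1B, of the spindle checkpoint, fell by 1.42, PLK1 and AURKB, kinases of mitosis, by 1.30 and 1.01, and MKI67 by 1.02. Positive differences were those of TOP2A (0.63), CCNE2 (0.57), MCM4 (0.44), MCM6 (0.44), BUB1 (0.43), RRM2 (0.25), TPX2 (0.23), AURKA (0.21) and CENPF (0.13). The rest of the 24 had negative differences. These levels differed among the HS libraries: MKI67 was at 23.0 TPM in 42C A, above every thermoneutral library, and 2.10 TPM in 42C B. PAXX was at 39.3 TPM in 42C A and 84.5 TPM in 42C B. In 42C C, D and E, MKI67 was at 3.27, 5.13 and 8.92 TPM and PAXX at 43.6, 38.4 and 37.0 TPM. The part of cell division in the levels of the members was not tested.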
